A study of Mus musculus with 12 samples.

Results

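The proteasome genes of cardiomyocytes and of cultured cardiac nonmyocytes were compared in polyadenylated RNA of the mouse heart. Members were all genes of the count table whose symbol begins with Psma, Psmb, Psmc, Psmd, Psme, Psmf or Psmg, and 52 of the 57683 genes met this rule. Hearts came from 3 wild-type female mice of the inbred strain FVB/NJ at 12 weeks of age, and no group carried a transgene or received an agent. Hearts were digested with collagenase, cardiomyocytes (FVB-CM) were parted from the other cells by gravity, and their RNA was taken at once. Nonmyocytes (FVB-fibro) were cultured before RNA was taken and by then were mostly fibroblasts, which the protocol describes as passaged 2 times and the cell type label as a P1 culture. Cell type and time in culture therefore cannot be told apart in any difference below. Each fraction gave 3 libraries, numbered 1 to 3, and nothing in the labels ties a number to a heart, so a p-value rests on how far libraries of a fraction differ from each other, and part of that spread may be technical.

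The proteasome is the chamber in which cells break down proteins tagged with ubiquitin. Its core is a barrel of stacked rings, with outer rings of alpha subunits (Psma) that form the gate and inner rings of beta subunits (Psmb) of which Psmb5, Psmb6 and Psmb7 carry the cutting sites. A regulatory particle of ATPases (Psmc) and non-ATPase subunits (Psmd) binds ubiquitin, unfolds the substrate and feeds it into the core, while the activators Psme1 to Psme4 can open the same gate without ubiquitin. Psmb8, Psmb9 and Psmb10 replace Psmb5, Psmb6 and Psmb7 in the immunoproteasome, which is known for its induction by interferon gamma and for making peptides for antigen presentation. In heart muscle the proteasome turns over damaged and sarcomeric proteins, and loss of its capacity has been linked to heart disease.

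Total counts ran from 5956831 to 26851830 per library, cardiomyocyte library 1 being the shallowest. Levels are given as CPM, counts scaled to a common library size by the trimmed mean of M values (TMM), and, where genes are compared with each other, as RPKM, which is CPM per kilobase of exon. A positive log2 fold change means a higher level in cardiomyocytes, the ± sign before its standard error, and a gene was called at an adjusted p under 0.05 in edgeR's quasi-likelihood test over all 14734 genes with enough counts. The summed level of 5 cardiomyocyte markers was 86551 to 108947 CPM in cardiomyocytes and 595 to 787 CPM in nonmyocytes, and that of 5 fibroblast markers was 137 to 208 CPM and 7927 to 9479 CPM. Summed smooth muscle and pericyte markers were 432 to 654 CPM against 6151 to 7701 CPM, with Rgs5 and Cspg4 called higher and the other 3 of 5 lower in cardiomyocytes. Summed endothelial markers were 346 to 761 CPM against 83.1 to 92.8 CPM, with 5 of 6 tested markers higher and Emcn uncalled at a log2 fold change of -0.70. Pecam1 was listed at 0 in nonmyocytes, but 81.1% of its exon bases are shared, so it gives no level. Summed macrophage and leukocyte markers were 46.7 to 57.4 CPM against 94.8 to 106 CPM, with Cd68 and Csf1r lower, Itgam higher (log2 fold change 1.70) and Cd14 and Lyz2 not called. Of the untested markers in that list, Fcer1g was 1.17 CPM against 0.173 CPM on average and Cd3e was at 0 in nonmyocytes. Ptprc averaged 0.450 against 0.494 CPM, Cd79a 0.180 against 0.199 CPM and Emr1 0.824 against 0.629 CPM. The groups overlapped for Cd3e, Ptprc, Cd79a and Emr1. Summed erythroid markers ran from 7.999 to 359 CPM in cardiomyocytes, library 1 being the highest, and from 1.40 to 3.29 CPM in nonmyocytes. In such bulk samples fewer cells of a type and less RNA per cell cannot be told apart.

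Short stretches of the promoters of 5 members are printed here because the largest differences and the immunoproteasome genes are described below with reference to them. Sequences and positions are those of RefSeq on the mouse build GRCm38.p6, 5′ to 3′ along the gene, with the letters that match a motif in capitals. In Psme4 (chr11:30771728-30771804, plus strand) the capitals mark the core of the antioxidant response element, TGACNNNGC, on the opposite strand at position -7 from the start site. In Psmb5 (chr14:54617994-54618082, minus strand) they mark the same core on the gene's own strand at -47. In Psme1 (chr14:55578463-55578523, plus strand) they mark the interferon-stimulated response element, GAAA followed by any 2 bases and GAAA again, on the opposite strand at 10 bases after the start. In Psmb8 (chr17:34198058-34198146, plus strand) they mark the gamma-activated site, TTCNNNGAA, at -97. The last stretch is the 225 bases between the start sites of Psmb9 and Tap1 (chr17:34187331-34187555, minus strand), read toward Psmb9, with a CCAAT box on the opposite strand at -8.
Psme4: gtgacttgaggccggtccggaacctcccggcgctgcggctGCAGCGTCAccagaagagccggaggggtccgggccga
Psmb5: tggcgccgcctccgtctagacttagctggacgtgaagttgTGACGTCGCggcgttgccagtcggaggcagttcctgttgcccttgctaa
Psme1: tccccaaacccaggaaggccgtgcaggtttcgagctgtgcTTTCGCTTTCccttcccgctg
Psmb8: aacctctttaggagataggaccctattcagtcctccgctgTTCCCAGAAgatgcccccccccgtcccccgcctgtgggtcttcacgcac
Psmb9 to Tap1: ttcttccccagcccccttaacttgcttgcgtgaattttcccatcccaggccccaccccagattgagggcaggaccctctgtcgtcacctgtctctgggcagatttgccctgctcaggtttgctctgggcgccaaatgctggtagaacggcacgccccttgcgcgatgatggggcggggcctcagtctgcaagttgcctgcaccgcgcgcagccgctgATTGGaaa

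Of the 52 members 45 had enough counts to be tested, 14 were higher in cardiomyocytes, 8 were lower and 23 were not called. Members were thus called in 48.9% of cases, while 63.7% of all genes tested were called, 31.6% as higher and 32.1% as lower. A call with at least a 2-fold difference was made for 8 members, or 17.8%, against 52.4% of all genes, and the groups did not overlap in 23 members, or 51.1%, against 70.4% of all genes. The median log2 fold change of the members was 0.07 and that of all genes -0.02, while the median absolute log2 fold change was 0.44 in members and 1.23 in all genes. These members passed the filter on counts, and the others are accounted for further on. The summed level of all members was 4411 ± 343 CPM (SD, n = 3) in cardiomyocytes and 3934 ± 171 CPM in nonmyocytes.

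**Figure D1:**
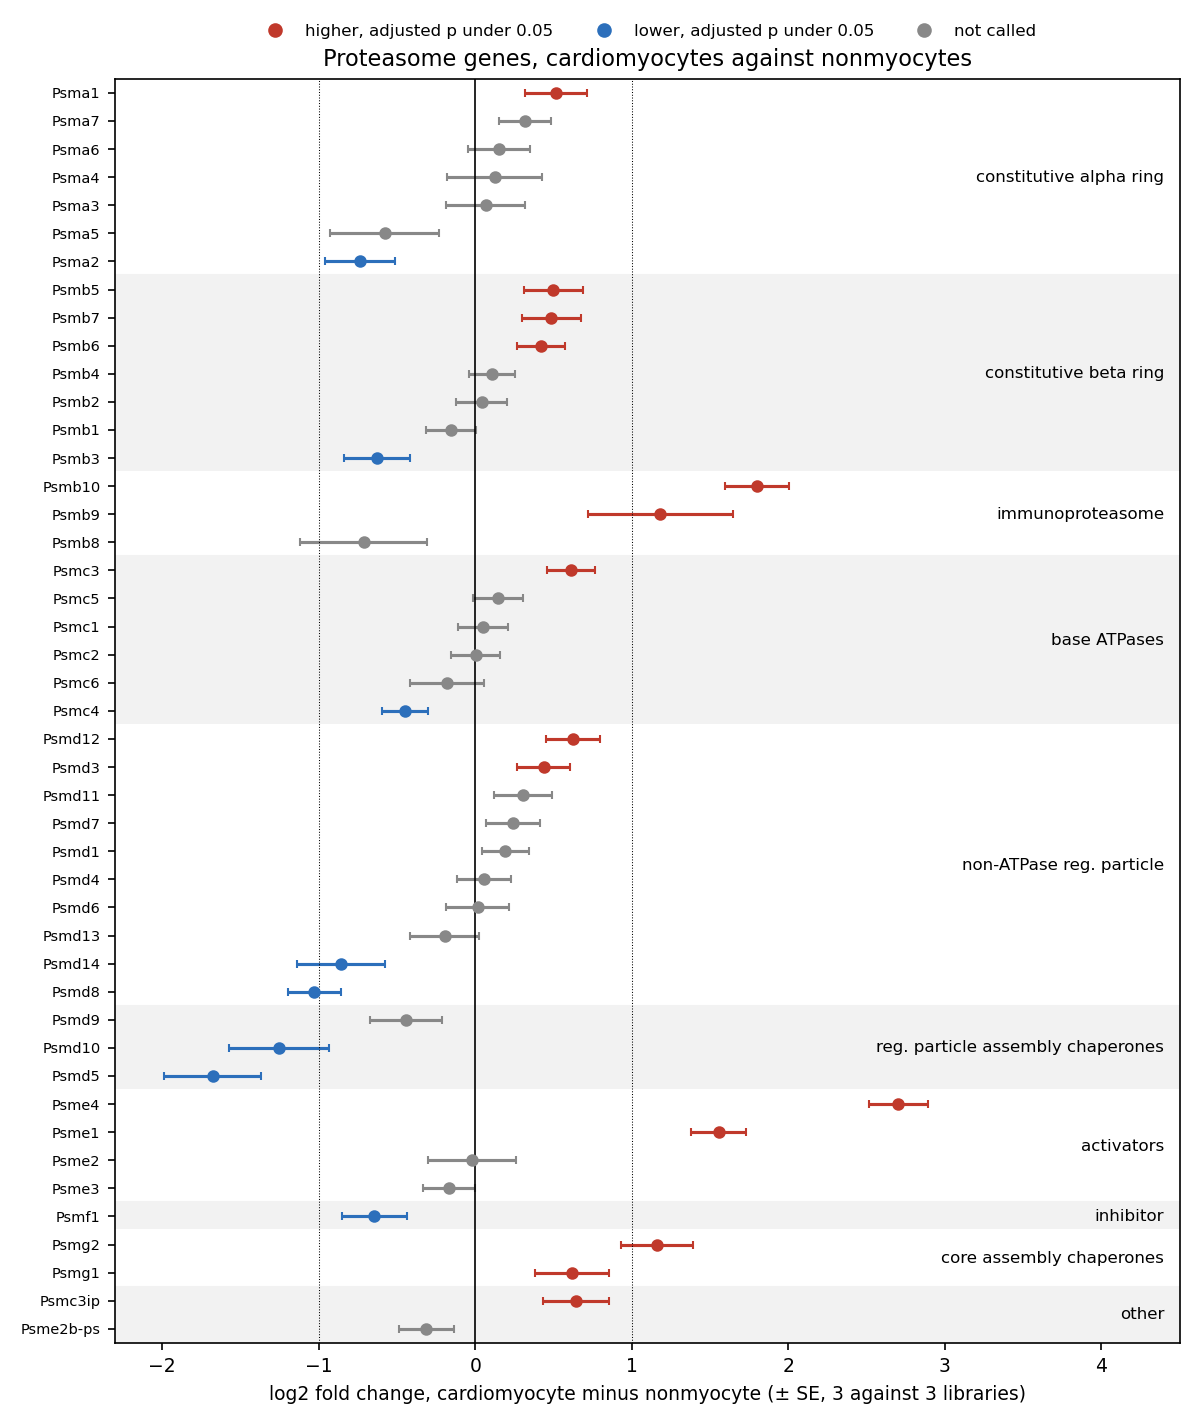
Log2 fold change (cardiomyocyte over nonmyocyte, horizontal axis) with its standard error for each of the 45 tested members, grouped by role. Most core and regulatory particle subunits lie near 0, Psme4 is farthest to the right at 2.70 and Psmd5 farthest to the left at -1.68.

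The stoichiometric body of the proteasome, 30 tested subunits of core and regulatory particle, held 7 higher calls, 5 lower calls and 18 without a call. Calls were thus made for 12 of 30, a smaller share than the 63.7% of all genes. The median log2 fold change of these subunits was 0.09. Only Psmd8 among them was called with at least a 2-fold difference, or 3.33% against 52.4% of all genes. The activators, the immunoproteasome subunits and the assembly chaperones, 12 tested genes in all, held the other 7 of the 8 members called at 2-fold or more, a share of 58.3% against the 52.4% of all genes.

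Among activators, Psme4 and Psme1 were far higher in cardiomyocytes, while Psme2 and Psme3 were not called. Psme4, which encodes the large single-chain activator PA200, stood at 139, 158 and 163 CPM in cardiomyocyte libraries 1 to 3 and at 19.6, 28.5 and 22.9 CPM in nonmyocyte libraries 1 to 3. Every cardiomyocyte library was above every nonmyocyte library. The log2 fold change of 2.70 ± 0.19 (edgeR adjusted p = 4.72e-08), a 6.50-fold difference, was the largest among the members. On mm9 the gene covers chr11:30671726-30780361.

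Psme1, which encodes the alpha subunit of the interferon-inducible PA28 activator, stood at 113, 144 and 154 CPM in cardiomyocytes and at 45.3, 43.6 and 51.0 CPM in nonmyocytes. The groups did not overlap, and the log2 fold change was 1.56 ± 0.18 (edgeR adjusted p = 4.93e-06). Psme2 encodes the beta subunit with which Psme1 forms a mixed ring, and its gene lies 5913 bases from Psme1 on chr14 (mm9). It stood at 9.69, 16.7 and 14.8 CPM in cardiomyocytes and at 11.6, 16.3 and 14.4 CPM in nonmyocytes. Its groups overlapped, and its log2 fold change of -0.02 was not called (edgeR adjusted p = 0.956).

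The level of Psme2 is uncertain, because 28.3% of the 50-base windows of its transcripts recur in another gene, as do 69.3% of those of its processed copy Psme2b-ps. Psme2b-ps held 40.3, 52.9 and 44.5 CPM in cardiomyocytes and 58.3, 53.1 and 60.2 CPM in nonmyocytes, with a log2 fold change of -0.31 that was not called (edgeR adjusted p = 0.137) though its groups did not overlap. The copy was called lower when scaled by upper quartiles (-0.41, edgeR adjusted p = 0.0368) or by library totals (-0.998, edgeR adjusted p = 9.32e-05). With the counts of the gene and its copy summed, the log2 fold change was -0.25 (edgeR adjusted p = 0.221). The RPKM ratio of Psme1 to Psme2 plus its copy was 2.20 ± 0.27 (SD, n = 3) in cardiomyocytes and 0.612 ± 0.023 in nonmyocytes, without overlap.

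Psme3 encodes the nuclear activator PA28 gamma. It stood at 73.6, 85.5 and 71.4 CPM in cardiomyocytes and at 96.7, 84.3 and 78.2 CPM in nonmyocytes, overlapping, with a log2 fold change of -0.17 (edgeR adjusted p = 0.394). Per length the order of the activators was Psme1, Psme3, Psme4 and Psme2 in cardiomyocytes, at 137, 26.1, 18.3 and 7.78 RPKM. In nonmyocytes it was Psme1, Psme3, Psme2 and Psme4, at 46.8, 29.3, 7.999 and 2.82 RPKM. This order and the share below leave out Psme2b-ps, at 54.9 RPKM in cardiomyocytes and 68.3 RPKM in nonmyocytes. The place of Psme2 in the order is therefore uncertain. Psme4 took 9.73% ± 0.57 (SD, n = 3) of the RPKM of the 4 activators, without the copy, in cardiomyocytes and 3.26% ± 0.68 in nonmyocytes. The RPKM ratio of Psme4 to Psme3 was 0.707 ± 0.084 and 0.098 ± 0.024. Psmf1, which encodes the inhibitor PI31, fell by 0.64 ± 0.21 on the log2 scale (edgeR adjusted p = 0.0147). It stood at 19.96, 25.95 and 19.4 CPM against 31.3, 36.1 and 35.0 CPM, without overlap. Other genes hold 42.1% of its exon bases, and its call did not hold without cardiomyocyte library 3 (log2 fold change -0.54, edgeR adjusted p = 0.0967), nonmyocyte library 2 (-0.56, adjusted p = 0.0577) or nonmyocyte library 3 (-0.58, adjusted p = 0.0506), and with no filter on low counts (-0.58, adjusted p = 0.0513).

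**Figure D2:**
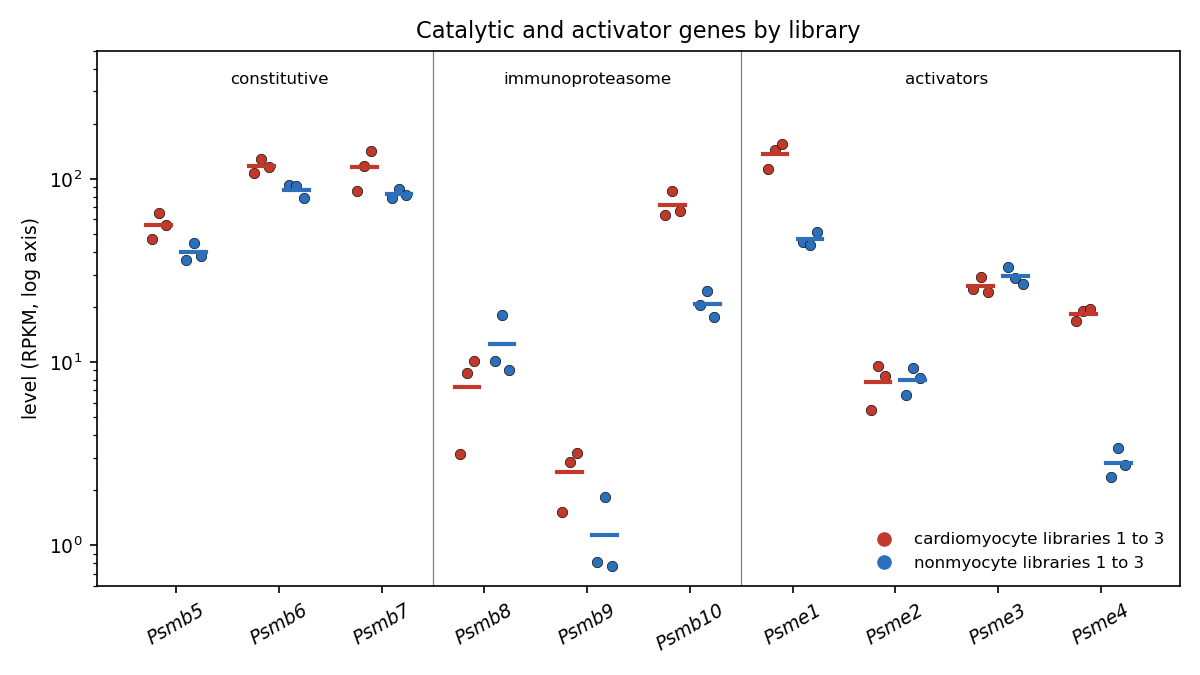
RPKM of each library on a log axis for the catalytic beta subunits, their immunoproteasome counterparts and the activators, with cardiomyocyte and nonmyocyte libraries side by side. The groups are widely apart for Psme4, Psme1 and Psmb10, and they overlap for Psmb7, Psmb8, Psmb9, Psme2 and Psme3.

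The immunoproteasome subunits did not move together: Psmb10 was clearly higher in cardiomyocytes, Psmb9 was higher by a call that single libraries decided, and Psmb8 was not called. Psmb10 (chr8:108459642-108461987 on mm9) replaces Psmb7 and carries trypsin-like activity. It stood at 60.6, 81.8 and 63.1 CPM in cardiomyocytes and at 19.4, 23.1 and 16.7 CPM in nonmyocytes. All 3 cardiomyocyte libraries lay above all 3 nonmyocyte libraries, with a log2 fold change of 1.80 ± 0.20 (edgeR adjusted p = 5.15e-06).

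Psmb9 (chr17:34318933-34324318) and Psmb8 (chr17:34335313-34338399) lie 10994 bases apart in the major histocompatibility complex, with Tap1 between them. Psmb9 stood at 3.68, 6.84 and 7.66 CPM in cardiomyocytes and at 1.94, 4.45 and 1.86 CPM in nonmyocytes. Its highest nonmyocyte library lay above its lowest cardiomyocyte library, and its log2 fold change was 1.18 ± 0.46 (edgeR adjusted p = 0.0390). The call of Psmb9 did not hold without cardiomyocyte library 2 (1.10, adjusted p = 0.119), cardiomyocyte library 3 (1.01, adjusted p = 0.147), nonmyocyte library 1 (1.03, adjusted p = 0.101) or nonmyocyte library 3 (1.00, adjusted p = 0.113), each by edgeR. It was also lost with library totals (0.48, edgeR adjusted p = 0.364) and with upper quartiles (1.07, edgeR adjusted p = 0.0501). Psmb8 stood at 3.29, 9.17 and 10.6 CPM in cardiomyocytes and at 10.7, 19.0 and 9.55 CPM in nonmyocytes. The groups overlapped, and the log2 fold change of -0.71 ± 0.41 was not called (edgeR adjusted p = 0.142). Psmb8 was called lower when scaled by library totals (-1.42, edgeR adjusted p = 0.00623), and its value was -0.37 without cardiomyocyte library 1 and -0.34 without nonmyocyte library 2.

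The standard counterparts were all slightly higher in cardiomyocytes under TMM scaling. Psmb5, which carries chymotrypsin-like activity, stood at 43.4, 59.7 and 51.3 CPM against 33.4, 41.3 and 35.1 CPM. Its groups did not overlap and its log2 fold change was 0.50 ± 0.19 (edgeR adjusted p = 0.0337), but -0.19 when scaled by library totals, and 54.1% of its 50-base windows recur in other genes. Psmb6, the caspase-like subunit, stood at 200.1, 239 and 217 CPM against 174, 170.0 and 147 CPM, without overlap. The log2 fold change of Psmb6 was 0.42 ± 0.15 (edgeR adjusted p = 0.0303), and -0.26 by library totals. Psmb7 stood at 104, 143 and 173 CPM against 94.9, 106 and 99.3 CPM, with 1 cardiomyocyte library inside the nonmyocyte range, a log2 fold change of 0.49 ± 0.19 (edgeR adjusted p = 0.0388) and -0.20 by library totals. None of these 3 calls held without cardiomyocyte library 2 (edgeR adjusted p = 0.172, 0.115 and 0.0991 for Psmb5, Psmb6 and Psmb7) or without cardiomyocyte library 3 (0.0805, 0.0811 and 0.217). Without nonmyocyte library 3 those of Psmb5 and Psmb6 were also lost (edgeR adjusted p = 0.0506 and 0.0638), as were those of Psmb6 and Psmb7 with upper quartiles (edgeR adjusted p = 0.0549 and 0.0551).

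Shares within each pair of exchangeable subunits do not depend on how libraries are scaled. Psmb10 made up 42.7%, 42.1% and 31.8% of the RPKM of Psmb10 plus Psmb7 in cardiomyocytes and 20.7%, 21.7% and 17.7% in nonmyocytes. Psmb8 made up 6.25%, 11.9% and 15.3% of Psmb8 plus Psmb5 in cardiomyocytes and 21.9%, 28.8% and 19.3% in nonmyocytes. Both shares separated the fractions without overlap, in opposite directions. Psmb8 had 17 counts in cardiomyocyte library 1, and 11.9% of its 50-base windows recur in other genes, as do 54.1% of those of Psmb5. Psmb9 made up 1.41%, 2.17% and 2.67% of Psmb9 plus Psmb6 against 0.858%, 1.99% and 0.975%, which overlap. With 3 libraries against 3 an exact two-sided permutation test can go no lower than p = 0.1, so the shares are given without one. The 3 immunoproteasome genes together held 22.1% ± 1.84 (SD, n = 3) of the RPKM of the 6 catalytic genes in cardiomyocytes and 13.9% ± 2.31 in nonmyocytes, and Psmb10 held most of that share. The part of leukocyte and endothelial cells in these values was not tested: as given above, summed endothelial markers were higher in the cardiomyocyte libraries, and leukocyte markers were lower in sum with single members going either way.

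**Figure D3:**
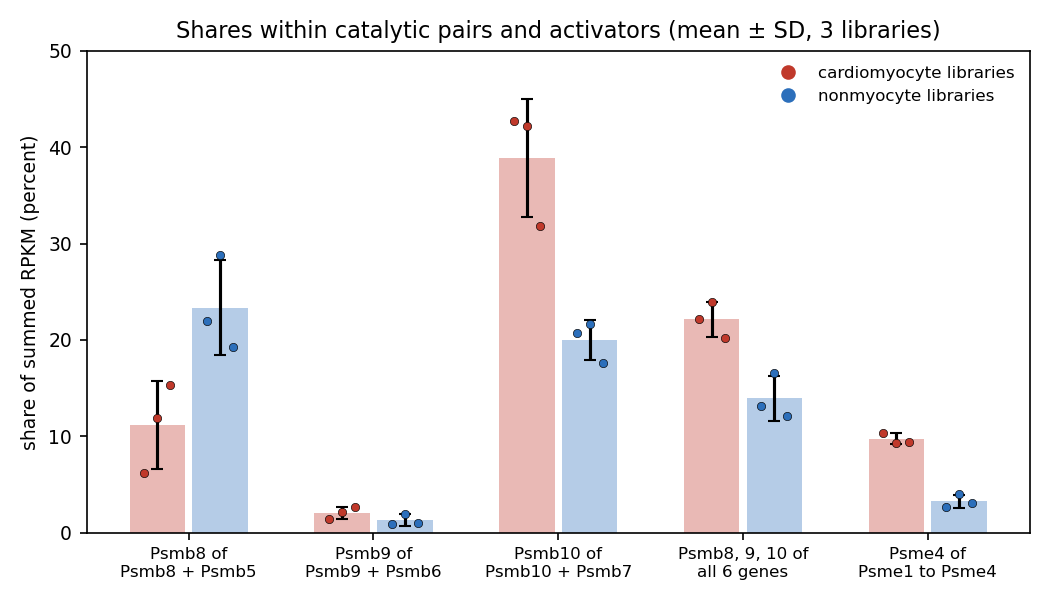
Share of the immunoproteasome subunit in the RPKM of each exchangeable pair, and of all 6 catalytic genes, in percent per library. The last group is the share of Psme4 in the RPKM of Psme1 to Psme4. Bars give the mean of each fraction with its SD. The Psmb10 share is higher in every cardiomyocyte library (31.8% to 42.7%) than in any nonmyocyte library (17.7% to 21.7%), and the Psmb8 share is lower in every cardiomyocyte library.

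The 14 constitutive core subunits differed little between the fractions, with log2 fold changes from -0.74 to 0.52. Of these 14 subunits, 4 were higher, 2 lower and 8 not called, 42.9% called against 63.7% of all genes. Their summed level was 1467 ± 191 CPM (SD, n = 3) in cardiomyocytes and 1331 ± 80.1 CPM in nonmyocytes. In the alpha ring, Psma1 rose by 0.52 ± 0.20 (edgeR adjusted p = 0.0352) under TMM scaling, though its value was -0.17 by library totals, and Psma2 fell by 0.74 ± 0.22 (edgeR adjusted p = 0.0115). Psma1 stood at 60.6, 91.4 and 83.8 CPM against 45.4, 59.8 and 60.1 CPM, and Psma2 at 33.1, 26.9 and 44.0 CPM against 45.1, 62.0 and 66.7 CPM. Neither gene's groups overlapped, but the gaps between them were small. The call of Psma1 was lost without cardiomyocyte library 2, cardiomyocyte library 3 or nonmyocyte library 1 (edgeR adjusted p = 0.164, 0.102 and 0.056). That of Psma2 was lost without cardiomyocyte library 2, nonmyocyte library 2 or nonmyocyte library 3 (edgeR adjusted p = 0.0729, 0.0578 and 0.0730).

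Per length, Psma6 at 77.8 ± 20.4 RPKM (SD, n = 3) and Psma7 at 70.3 ± 10.4 RPKM were the highest of the alpha ring in cardiomyocytes, a difference smaller than their spread, and neither was called between the fractions. Psma6 stood at 70.3 ± 6.83 RPKM and Psma7 at 56.5 ± 6.04 RPKM in nonmyocytes. The lowest alpha subunits were Psma3, at 3.36 and 3.21 RPKM in cardiomyocytes and nonmyocytes, and Psma5, at 4.26 and 6.55 RPKM, with 49.96% of its 50-base windows shared with copies elsewhere. The annotation gives Psma3 3894 exon bases and Psma6 1234, and the part of these lengths in the levels was not tested.

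In the beta ring Psmb1 and Psmb2, which do not cut, had the highest levels per length, and neither was called. Psmb1 stood at 237 ± 26.6 RPKM (SD, n = 3) in cardiomyocytes and 264 ± 25.6 RPKM in nonmyocytes, and Psmb2 at 179 ± 28.9 and 174 ± 12.7 RPKM. Psmb3, a structural subunit, was the 1 beta subunit called lower, at 29.1, 39.5 and 34.1 CPM against 63.4, 55.7 and 40.1 CPM. Its groups were just apart, with a log2 fold change of -0.62 ± 0.21 (edgeR adjusted p = 0.0200). A catalogue transcript without a gene name covers 65.5% of its exon bases, and the call was lost without cardiomyocyte library 3, nonmyocyte library 1 or nonmyocyte library 2 (edgeR adjusted p = 0.0699, 0.100 and 0.0677). Psmb4 was not called, at 107 and 99.7 RPKM.

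The ATPase ring of the regulatory particle, which unfolds substrates, held 1 higher, 1 lower and 4 uncalled members. Calls were thus made for 33.3% of the ring, against 63.7% of all genes. Psmc3 stood at 363, 417 and 366 CPM in cardiomyocytes and at 274, 247 and 230 CPM in nonmyocytes, without overlap. Its log2 fold change was 0.61 ± 0.15 (edgeR adjusted p = 0.00362) and its call held without any single library, yet its value was -0.07 when scaled by library totals. Per length Psmc3, at 147 ± 11.8 RPKM (SD, n = 3), was the highest ATPase in cardiomyocytes, followed by Psmc5 at 106 ± 13.8 RPKM. In nonmyocytes the same genes stood at 96.1 ± 8.63 and 95.5 ± 7.04 RPKM, which do not differ beyond their spread.

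Psmc4 stood at 133, 147 and 142 CPM in cardiomyocytes against 198, 198 and 182 CPM, lower in every cardiomyocyte library, with a log2 fold change of -0.45 ± 0.15 (edgeR adjusted p = 0.0166). That call was lost without cardiomyocyte library 3, nonmyocyte library 1 or nonmyocyte library 2 (edgeR adjusted p = 0.0789, 0.0588 and 0.0729), and with no filter on low counts (edgeR adjusted p = 0.102). Psmc1, Psmc2, Psmc5 and Psmc6 had log2 fold changes of 0.05, 0.00, 0.15 and -0.18, with other genes covering 68.9% of the exon bases of Psmc2.

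Of the 10 tested non-ATPase subunits, 2 were higher, 2 were lower and 6 were not called. The 4 calls among 10 are a smaller share than the 63.7% of all genes. Psmd8, a subunit of the lid, was lower in cardiomyocytes at 123, 172 and 143 CPM against 311, 307 and 275 CPM, a clear gap between the groups. The log2 fold change of Psmd8 was -1.03 ± 0.17 (edgeR adjusted p = 0.000134), and its gene covers chr7:29959274-29965550 on mm9. Per length Psmd8 stood at 112 ± 19.0 RPKM (SD, n = 3) in cardiomyocytes, about level with Psmd7 at 113 ± 18.0 RPKM, while in nonmyocytes it stood at 228 ± 14.9 RPKM against 95.6 ± 12.1 RPKM for Psmd7. Psmd7 stood at 210.0, 181 and 152 CPM against 174, 149 and 136 CPM and was not called, with a log2 fold change of 0.24 (edgeR adjusted p = 0.233).

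Psmd14, the deubiquitinase of the lid, was also lower, at 7.94, 16.8 and 16.4 CPM against 22.4, 27.4 and 26.4 CPM. Its groups did not overlap, its log2 fold change was -0.86 ± 0.28 (edgeR adjusted p = 0.0175), and without nonmyocyte library 2 the call was just lost (adjusted p = 0.0505 by edgeR). Without the shallow cardiomyocyte library 1, where it was lowest, the log2 fold change was -0.58 (edgeR adjusted p = 0.0186). The lid subunit Psmd12 rose by 0.62 ± 0.17 (edgeR adjusted p = 0.00631), at 77.7, 95.6 and 92.2 CPM against 52.2, 65.8 and 54.8 CPM, though its value was -0.06 by library totals.

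Psmd3, another lid subunit, stood at 302, 270 and 230 CPM against 225, 176 and 190 CPM, its lowest cardiomyocyte library only just above the highest nonmyocyte library. Its log2 fold change was 0.44 ± 0.17 (edgeR adjusted p = 0.0354), and -0.23 by library totals. The call was lost without cardiomyocyte library 2, nonmyocyte library 2 or nonmyocyte library 3 (edgeR adjusted p = 0.0772, 0.110 and 0.0769). It was also lost with upper quartiles, DESeq2 size factors and the DESeq2 test (adjusted p = 0.0898, 0.0563 and 0.0547). Psmd1, Psmd4, Psmd6, Psmd11 and Psmd13 were not called, with log2 fold changes from -0.20 to 0.30.

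The chaperones that build the regulatory particle and leave it before it is complete were lower in cardiomyocytes in 2 of 3 cases. Calls were thus made for 66.7% of these chaperones, against 63.7% of all genes. Psmd5 stood at 4.26, 11.3 and 10.3 CPM in cardiomyocytes and at 27.4, 27.3 and 31.1 CPM in nonmyocytes. The groups were far apart, with a log2 fold change of -1.68 ± 0.31 (edgeR adjusted p = 0.000386). Psmd10, known as the oncoprotein gankyrin, stood at 4.07, 7.67 and 9.74 CPM against 17.02, 19.9 and 15.99 CPM, again without overlap. The log2 fold change of Psmd10 was -1.25 ± 0.32 (edgeR adjusted p = 0.00371). In both genes the shallow cardiomyocyte library 1 was the lowest, and without it the log2 fold changes were -1.37 and -0.98, still called (edgeR adjusted p = 8.98e-06 and 0.00145). The third chaperone, Psmd9, had a log2 fold change of -0.44 that was not called (edgeR adjusted p = 0.111).

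The 2 tested chaperones of the core pointed the other way, while Psmg3 and Psmg4 had too few counts to be tested. Psmg2, which guides assembly of the alpha ring as a pair with Psmg1, stood at 48.0, 58.3 and 47.4 CPM in cardiomyocytes and at 27.3, 25.99 and 15.7 CPM in nonmyocytes. The groups did not overlap, and the log2 fold change was 1.16 ± 0.23 (edgeR adjusted p = 0.000659), or 0.48 and not called by library totals (adjusted p = 0.0709). Psmg1 stood at 20.2, 32.1 and 32.9 CPM against 19.9, 19.6 and 16.5 CPM, a narrow gap, with a log2 fold change of 0.62 ± 0.24 (edgeR adjusted p = 0.0370) and -0.07 by library totals. Its call was lost without cardiomyocyte library 2, cardiomyocyte library 3 or nonmyocyte library 3 (edgeR adjusted p = 0.152, 0.154 and 0.0733). Summed over each class, core chaperones stood at 80.1 ± 11.3 CPM (SD, n = 3) against 42.1 ± 8.57 CPM, with Psmg3 listed at 0. Regulatory particle chaperones summed to 37.4 ± 6.32 CPM against 75.6 ± 4.99 CPM.

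Setting each gene beside the median RPKM of the 14 constitutive core subunits of its own library removes the scaling between libraries. Psme4 stood at 0.296 ± 0.032 (SD, n = 3) of that median in cardiomyocytes and at 0.0468 ± 0.0035 in nonmyocytes. For Psme1 the ratios were 2.20 ± 0.25 and 0.789 ± 0.133, and for Psmb10 they were 1.15 ± 0.08 and 0.346 ± 0.035. Psmb10 thus lay near the level of a typical core subunit in cardiomyocytes and well under it in nonmyocytes. Psmd8 stood at 1.79 ± 0.03 and 3.84 ± 0.49, Psmd5 at 0.039 ± 0.013 and 0.141 ± 0.022, and Psmd10 at 0.077 ± 0.027 and 0.200 ± 0.012. Psmg2 stood at 0.843 ± 0.084 and 0.394 ± 0.117.

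Calls of 6 members, Psme4, Psmb10, Psme1, Psmd5, Psmd8 and Psmd10, held in the same direction under every scaling, filter, tool and left-out library tried, apart from the separate test against a 2-fold change. Their log2 fold changes ranged from 2.02 to 2.90 for Psme4, from 1.11 to 1.97 for Psmb10 and from 0.87 to 1.70 for Psme1. They ranged from -2.38 to -1.37 for Psmd5, from -1.71 to -0.89 for Psmd8 and from -1.95 to -0.98 for Psmd10. Tested against a 2-fold change with edgeR's glmTreat, which called 40.9% of all genes, Psme4, Psmb10 and Psme1 were called as higher and Psmd5 as lower.

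With library sizes left as the plain totals, the median log2 fold change over all genes went from -0.02 to -0.70 and the members' median from 0.07 to -0.61. On that scale 3 members were higher and 28 lower, so that the share of higher calls went from 63.6% to 9.68% of the called members. Among all genes called, 4657 of 9389 were higher with TMM, and 30.9% were higher with library totals. The members' median stayed 0.10 above that of all genes. The modest higher calls of Psma1, Psmb5, Psmb6, Psmb7, Psmc3, Psmd3, Psmd12 and Psmg1 were thus made with TMM and not with library totals, and of these 8 genes Psmc3 and Psmd12 kept the call without any single library. Members uncalled with TMM but called lower with library totals included Psma3, Psma5, Psma6, Psma7, Psmb1, Psmb2, Psmb4, Psmb8, Psmc1, Psmc2, Psmc5 and Psmc6. Psmd1, Psmd4, Psmd6, Psmd9, Psmd13, Psme2, Psme2b-ps and Psme3 were called lower there too. Examples are Psme2 (-0.72, edgeR adjusted p = 0.0247), Psme3 (-0.85, edgeR adjusted p = 0.000284), Psmb1 (-0.84, edgeR adjusted p = 0.000162) and Psmd9 (-1.12, edgeR adjusted p = 0.000672).

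**Figure D4:**
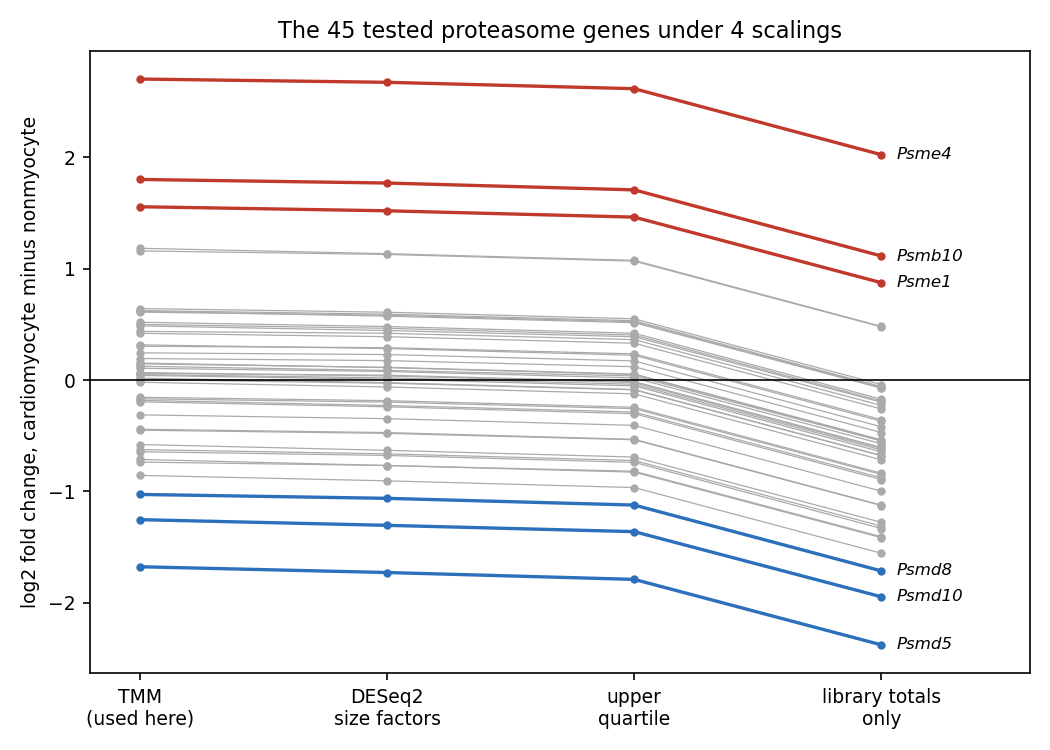
Log2 fold change of the tested members under TMM, DESeq2 size factors, upper quartiles and library totals alone, with Psme4, Psmb10, Psme1, Psmd5, Psmd8 and Psmd10 marked. Library totals lower all values, the median from 0.07 to -0.61, while Psme4 (2.02), Psmb10 (1.11) and Psme1 (0.87) stay above 0.

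Of the 52 members 7 had too few counts to be tested. Psmd2, a large scaffold subunit, and Psmg3 were listed at 0 in every library. Other genes of the annotation cover 100% of the exon bases of Psmd2 and 99.2% of those of Psmg3, and how reads in shared bases were counted is not given in the sources used here, so these zeros give no level. Psmg4, with 65.0% of its exon bases shared, had 0, 7 and 19 counts in cardiomyocytes and 8, 7 and 2 in nonmyocytes. Psma8, the alpha subunit of the testis proteasome, had 0, 1 and 6 counts against 4, 3 and 2. The copies Psmb5-ps, Psmb6-ps and Psmb7-ps2 had at most 2 counts in any library. Psmc3ip meets the naming rule but encodes a factor of meiotic recombination and no proteasome subunit. It had a log2 fold change of 0.64 ± 0.21 (edgeR adjusted p = 0.0173), or -0.04 by library totals, and lost its call without cardiomyocyte library 2 (adjusted p = 0.0873 by edgeR) or cardiomyocyte library 3 (adjusted p = 0.0514).

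Promoter windows from 250 bases before to 50 after the start were found in RefSeq for 41 of the 52 members and searched on both strands. The antioxidant response element core TGACNNNGC, the site of the factors Nfe2l1 and Nfe2l2 that are known to drive proteasome genes, occurred in 6 members, or 14.6%, against 13.99% of all genes. These were Psmb5, Psmb6, Psmc6, Psmd9, Psmd12 and Psme4. Matches in Psme4 and Psmb5 are the capitals printed above. The interferon-stimulated response element occurred in 5 members, or 12.2%, against 3.99% of all genes, namely Psmb3, Psmd4, Psmd9, Psme1 and Psmg4. The gamma-activated site TTCNNNGAA occurred in Psmb8, Psmd2 and Psmg1, or 7.32%, against 9.55% of all genes. CCAAT occurred in 14 members, or 34.1%, against 41.1%. No match of 1 motif overlapped a match of another in any member, and a match describes letters, not binding.

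Genes of the same pathway without a Psm symbol were taken from written lists. Of 11 tested partners of the proteasome, 2 were higher, 1 was lower and 8 were not called, 27.3% called against 63.7% of all genes, with a median log2 fold change of 0.09. Shfm1, the small lid subunit also known as Sem1, stood at 284 ± 43.5 CPM (SD, n = 3) against 179 ± 32.0 CPM, with a log2 fold change of 0.67 ± 0.18 (edgeR adjusted p = 0.00569) and -0.02 by library totals. Pomp, the maturation factor of the core, was not called at -0.22 (edgeR adjusted p = 0.283), but was lower by library totals (-0.90, edgeR adjusted p = 0.00018). Zfand5, which binds the proteasome and promotes its activity in muscle, was higher at 38.2 ± 8.30 CPM against 9.71 ± 0.94 CPM (log2 fold change 1.98 ± 0.24, edgeR adjusted p = 8.72e-06). Zfand2a, an arsenite-inducible partner, was lower at 30.2 ± 2.44 CPM against 67.5 ± 12.0 CPM (log2 fold change -1.16, edgeR adjusted p = 0.000146).

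Shuttle factors and the Vcp complex, which carry ubiquitinated proteins to the proteasome, held 4 higher, 4 lower and 3 uncalled genes, 72.7% called against 63.7% of all genes. Ubxn1, a cofactor of Vcp, was the most abundant per length at 147 against 231 RPKM and was lower, with a log2 fold change of -0.65 ± 0.18 (edgeR adjusted p = 0.00633). Ubqln4 was the farthest up, at 242 ± 23.6 against 88.9 ± 14.5 CPM (SD, n = 3), with a log2 fold change of 1.44 ± 0.17 (edgeR adjusted p = 8.03e-06). Its relative Ubqln2 was the farthest down, at 33.6 ± 7.84 against 67.8 ± 2.35 CPM, with a log2 fold change of -0.9997 (edgeR adjusted p = 0.000647). Among 5 ubiquitin and E1 genes 2 were called lower and the others were not called, a smaller called share than the 63.7% of all genes. Ubb, a polyubiquitin gene, stood at 46.3 against 52.4 RPKM and was not called (log2 fold change -0.18, edgeR adjusted p = 0.447), but was lower by library totals (-0.85, edgeR adjusted p = 0.00462). Uba1, the main ubiquitin-activating enzyme, fell by 0.62 on the log2 scale (edgeR adjusted p = 0.00337), at 415 ± 37.6 against 640 ± 53.7 CPM (SD, n = 3). Uba6, a second activating enzyme of low level, was also lower, at 1.80 ± 1.58 against 6.26 ± 3.45 CPM (log2 fold change -1.65, edgeR adjusted p = 0.0322), a call lost without cardiomyocyte library 2 (-1.58, adjusted p = 0.0978) or nonmyocyte library 3 (-1.11, adjusted p = 0.208).

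The 13 listed regulators of proteasome gene transcription held 5 higher and 5 lower calls, 76.9% called against 63.7% of all genes. Nfyc, a subunit of the factor that binds CCAAT boxes, was the farthest up at 30.6 ± 5.03 against 10.4 ± 0.68 CPM (SD, n = 3; log2 fold change 1.55 ± 0.23, edgeR adjusted p = 5.85e-05), while the other subunits Nfya and Nfyb were called lower (-0.94 and -0.86, edgeR adjusted p = 0.00199 and 0.0230). That of Nfyb was lost without nonmyocyte library 2 (-0.73, edgeR adjusted p = 0.0776). Nfe2l1, known for restoring proteasome gene expression when proteasome activity is low, stood at 1221 ± 74.4 CPM (SD, n = 3) in cardiomyocytes and 751 ± 87.9 CPM in nonmyocytes. Its log2 fold change was 0.70 ± 0.16 (edgeR adjusted p = 0.00188), and 0.03 and not called by library totals. Nfe2l2, its relative in the oxidative stress response, fell by 0.73 ± 0.17 (edgeR adjusted p = 0.00251), at 69.7 ± 8.11 against 116 ± 16.9 CPM. Maff, a small partner of both, was lower at 18.0 ± 9.57 against 181 ± 7.005 CPM (log2 fold change -3.39, edgeR adjusted p = 4.20e-07).

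Interferon and peptide loading genes, which share inducers with the immunoproteasome, were lower in cardiomyocytes in 8 of 14 tested cases, higher in 2 and not called in 4 (71.4% called against 63.7% of all genes), with a median log2 fold change of -1.82. B2m, the invariant chain of class I molecules, stood at 32.7 ± 17.1 against 294 ± 76.7 CPM (SD, n = 3; log2 fold change -3.14 ± 0.33, edgeR adjusted p = 2.28e-06). The class I heavy chain H2-K1 had a log2 fold change of -2.13 (edgeR adjusted p = 8.14e-07), and the interferon-induced Isg15 one of -5.20 (edgeR adjusted p = 9.10e-08). Ifngr2, a chain of the interferon gamma receptor, was higher, at 409 ± 84.5 against 87.4 ± 5.85 CPM (log2 fold change 2.23 ± 0.18, edgeR adjusted p = 2.58e-07). Irf1, which acts on immunoproteasome promoters after interferon gamma, was not called at -0.27 (edgeR adjusted p = 0.414). Erap1 was also called higher, at a log2 fold change of 1.71 (edgeR adjusted p = 0.000837). Psmb10 and Psme1 were higher in the same fraction as Ifngr2 and Erap1, while B2m, H2-K1 and Isg15 were lower there. How these differences are linked was not tested. Tap2 and Tapbp, which load peptides, were not called at -0.22 and -0.26 (edgeR adjusted p = 0.281 and 0.165). By library totals Irf1, Tap2 and Tapbp were called lower, at -0.97, -0.90 and -0.94 (edgeR adjusted p = 0.00372, 0.000293 and 8.49e-05). Tap1, which faces Psmb9 across the 225 bases printed above, was listed at 0 in all libraries, with 100% of its exon bases inside other genes.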

How the data were processed

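The authors deposited whole-number counts per gene, not normalised, for 6 polyadenylated RNA libraries, and per the labels' protocols these were single-end and do not keep the strand. Bowtie, TopHat 1.3.0, HTSeq, DESeq, edgeR and the build mm9 (NCBIM37) are named, without roles, in the submitters' processing notes. The counting rule is not given in the sources used here. Small RNA counts were not used. Members and gene lists were chosen with earlier results of these data known.

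From the counts, genes were filtered with filterByExpr (minimum count 10), scaled with TMM and compared with edgeR 4.0.16 (limma 3.58.1, R 4.3.3) by the robust quasi-likelihood test, two-sided, with Benjamini-Hochberg adjustment over 14734 genes, 3 libraries against 3. The standard error is the absolute log2 fold change over the square root of F. The fit was tested on simulated counts. The biological coefficient of variation was 0.251. RPKM used the union of exon bases in the deposited annotation, and length therefore depends on its isoforms. Shared exon bases came from that annotation, and copies from 50-base windows of GENCODE vM21 transcripts on GRCm38. Plots were drawn with matplotlib 3.10.9.

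Members named with full values were the catalytic pairs, activators and Psmf1, and per class the 2 highest per length in cardiomyocytes and the farthest called fold each way. In pathway lists, of which 2 genes are not reported here and were left out of the counts, these were the 2 most abundant per length and the farthest called fold each way. The choice of the other members with values, and of Nfe2l2, Nfya, Nfyb, Erap1, Irf1, Tap1, Tap2, Tapbp and H2-K1, was made with their values in view. The fit was repeated with upper quartiles, DESeq2 size factors or plain library totals as the scaling, with no filter, and with DESeq2 1.42.0, limma voom, glmTreat, a replicate block, mitochondrial genes left out and each library left out. Summing Psme2 with its copy was chosen after seeing the data.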

Additional observations from a re-analysis of the deposited data

How the results depend on the processing

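Members called higher and lower numbered 14 and 8 with TMM. Library totals gave 3 and 28 with a median log2 fold change of -0.61, upper quartiles 10 and 9 with a median of -0.014, and glmTreat 3 and 1. Leaving out 1 library at a time gave 6 to 15 higher and 3 to 8 lower, with medians from 0.034 to 0.17. Higher calls fell to 6 without cardiomyocyte library 2, to 7 without cardiomyocyte library 3 and to 9 without nonmyocyte library 3. Lower calls fell to 5 without cardiomyocyte library 3 and to 3 without nonmyocyte library 2. Fewer samples also lower power. DESeq2 size factors and the DESeq2 test each gave 13 and 8, limma voom 14 and 8, no filter 14 and 6, and mitochondrial genes left out 15 and 8. Of the 22 calls, 6 were made in the same direction in every alternative but glmTreat, and 9 when library totals are also set aside.

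Library totals turned these log2 fold changes negative: Psma1 -0.17, Psma3 -0.61, Psma4 -0.55, Psma6 -0.54, Psma7 -0.37, Psmb2 -0.65, Psmb4 -0.57, Psmb5 -0.19, Psmb6 -0.26, Psmb7 -0.20, Psmc1 -0.63, Psmc2 -0.68, Psmc3 -0.068, Psmc3ip -0.041, Psmc5 -0.54, Psmd1 -0.47, Psmd3 -0.23, Psmd4 -0.61, Psmd6 -0.68, Psmd7 -0.42, Psmd11 -0.36, Psmd12 -0.060, Psmg1 -0.074 and Shfm1 -0.019. Upper quartiles did so for Psma3 at -0.022, Psmb2 at -0.053, Psmc1 at -0.038, Psmc2 at -0.088, Psmd4 at -0.014 and Psmd6 at -0.085. Psmc2 and Psmd6 were also negative with DESeq2 size factors (-0.029 and -0.024) and with the DESeq2 test (-0.028 and -0.022). Psme2, at -0.02 with TMM, was 0.048 with no filter, 0.063 with limma voom and 0.022 without mitochondrial genes. Leaving out 1 library at a time gave values on both sides of 0 for 9 uncalled genes: Psma4 from -0.26 to 0.35, Psma6 from -0.047 to 0.35, Psmb2 from -0.075 to 0.18, Psmc2 from -0.087 to 0.11, Psmc6 from -0.33 to 0.076, Psmd4 from -0.022 to 0.25, Psmd6 from -0.16 to 0.21, Psmd13 from -0.39 to 0.035 and Psme2 from -0.17 to 0.19. The cause of these shifts was not tested. The shallow depth of cardiomyocyte library 1 limits the low genes Psmb8, Psmb9, Psmd5 and Psmd10.

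With the replicate number as a block, 14 members were higher and 8 lower with a median of 0.06, and Psmc2 and Psmd6 turned to -0.0033 and -0.013. The numbers were not shown to pair the libraries: deviations of same-numbered libraries correlated at 0.162, 0.050 and 0.100 over 14734 genes, and cardiomyocyte library 2 correlated best with nonmyocyte library 3 (0.061).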
